A study of Danio rerio with 18 samples.

Results

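The constitutive proteasome subunits were followed in the zebrafish (Danio rerio) brain after spinal cord injury. Members were the genes whose annotated symbol is psma, psmb, psmc or psmd followed by a number and, in some cases, a letter, leaving out the inducible subunits psmb8, psmb8a, psmb9, psmb9a and psmb10. The rule found 38 of the 8793 genes that the array's annotation names, 17 of them in the 20S core (8 alpha and 9 beta genes) and 21 in the 19S cap (7 ATPase genes and 14 others). The rule used names only and no measured value.

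RNA came from a midbrain cell group named after the medial longitudinal fascicle, the NMLF, whose axons run down the cord and grow back in zebrafish after the cord is cut, and was collected by laser capture. Fish whose cord had been transected were compared with fish given sham surgery, and tissue was taken at 4 h, 12 h or 11 d, with 3 arrays in each of 6 groups, 18 arrays in all. No strain, age, sex or transgene is given in the labels, and all fish were kept at 28C on a light cycle of 14 hours on and 10 hours off. Because the labels do not tie arrays to animals or say whether tissue was pooled, p-values measure only the spread between these arrays, which may be technical.

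The proteasome is the barrel-shaped protease that degrades proteins tagged with ubiquitin. In its 20S core, outer rings of alpha subunits gate the entrance and inner rings of beta subunits carry the cutting sites. The 19S cap recognises ubiquitin, removes it and, with a ring of ATPases, unfolds the substrate and threads it into the core. Neurons depend on it for protein turnover at synapses and in growth cones.

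The symbols of all 38 members were unchanged in a RefSeq gene table of the zebrafish (assembly GRCz12tu). That table holds 44 protein-coding genes that meet the rule, and the other 6 (psma3, psma6b, psmb11a, psmb11b, psmd11a and psmd14) were not analysed here. Thus psmd14, the cap's deubiquitinase, has no value below. Not every member is a constitutive part of the particle. The beta genes psmb12 and psmb13a are consecutive with the inducible genes psmb8a and psmb9a in the order of protein-coding genes of that table (psmb13a, psmb8a, psmb12, psmb9a), and psmd5, psmd9 and psmd10 are known, in mammals and yeast, as chaperones of cap assembly that leave the finished cap. Without these 5 genes, 33 members remained.

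Signals below are probe-set intensities on a linear scale after quantile normalization, with values under 16 set to 16, and a group level is a geometric mean. A log2 change is a difference of group means of log2 signal, given with its SE from a linear model (limma) fitted to all 18 arrays, and a gene was called when its Benjamini-Hochberg adjusted p over 15502 probe sets was under 0.05. Of the members, 36 were above 16 on every array. The exceptions were psmb12, at 16 on 3 arrays, and psmb13a, at 16 on 2 arrays. By mean signal 37 members were among the brightest 10334 probe sets, which serve as the comparison where dim probe sets would dilute a count. The spread between arrays of a group had a median SD of 0.29 on the log2 scale over the members (0.33 for the core and 0.27 for the cap), against 0.38 over the brightest probe sets.

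The markers of neurons were present in all groups: 8 of 12 listed genes were measured and none was at 16 on all arrays, with summed signals of 10750 to 19680. Markers of radial glia (7 of 9 measured), oligodendrocytes and myelin (4 of 7), microglia and leukocytes (11 of 12), erythrocytes (4 of 7) and endothelium (2 of 8) were measured too, so the captured tissue held RNA of several cell types. In such tissue, fewer cells of a type and less RNA per cell cannot be told apart. The ratio of 3′ to 5′ GAPDH control signal, which grows as RNA is shortened or degraded, was 1.53 to 2.04 on the arrays at 4 h, 3.15 to 5.4 on the 6 arrays at 12 h and 1.39 to 2.88 at 11 d. On the first principal component, both replicate 3 arrays at 11 d lay apart from the other 4 arrays of that time (27.7 for the transected and 19.8 for the sham array, against -41.8 to -28.1).

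**Figure D1:**
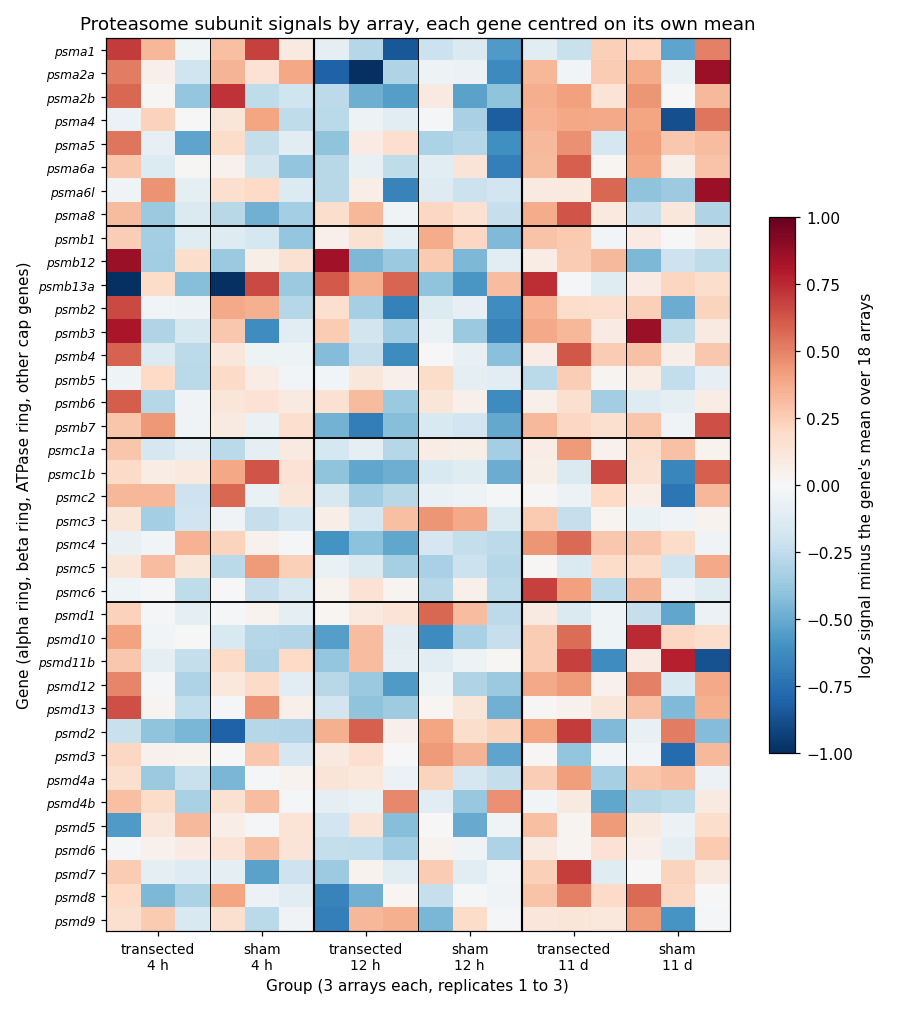
Log2 signal of each of the 38 members (rows) on each of the 18 arrays (columns, in order of time, the transected group left of its sham group), with each gene centred on its own mean, and colours limited to 1 log2 unit on either side. The 6 columns at 12 h are mostly blue, with 6 to 17 of 38 members above their own median, and the 3 transected columns at 11 d are mostly red, with 24 to 31 members above it.

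Transection was first set against sham surgery at each time. No member was called at 4 h, at 12 h or at 11 d by limma, and the same model called few probe sets in all: 0 of 15502 at 4 h (0%), 4 at 12 h (0.0258%) and 7 at 11 d (0.0452%). At an unadjusted p under 0.05 the members counted 0 at 4 h (2.48% of the brightest probe sets), 1 at 12 h (5.45%) and 2 at 11 d (5.25%), which is 0%, 2.63% and 5.26% of the 38. The members' share was thus near or below that of the brightest probe sets at each time.

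At 4 h, 21 members were higher and 17 lower in transected fish, with a median log2 change of 0.019, against 0.0059 over the brightest probe sets. The median was 0.032 for the core and 0.0021 for the cap, and the members' median turned to -0.015 on the deposited scale without quantile normalization. The highest core changes were 0.30 ± 0.19 for psma8, 0.28 ± 0.35 for psmb12 and 0.27 ± 0.34 for psmb3, a structural beta subunit. The lowest were -0.18 ± 0.40 for psmb13a, -0.17 ± 0.27 for the alpha subunit psma2a and -0.12 ± 0.14 for psmb5, which carries the chymotrypsin-like site. In the cap, the chaperones psmd10 (0.37 ± 0.23) and psmd9 (0.14 ± 0.29) and the lid subunit psmd7 (0.29 ± 0.19) were the highest. The ATPase psmc1b (-0.27 ± 0.27) and the lid subunits psmd8 (-0.26 ± 0.22) and psmd6 (-0.15 ± 0.095) were the lowest. The adjusted p (limma, Benjamini-Hochberg) was 1 for every member. Only psmd10 was higher on all 3 transected arrays than on all 3 sham arrays (3.52% of the brightest probe sets), and only psmd6 was lower on all of them (2.46%).

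At 12 h, 18 members were higher and 20 lower in transected fish, with a median of -0.0062, against -0.028 over the brightest probe sets. The median was 0.015 for the core and -0.12 for the cap. Among the 33 members left without psmb12, psmb13a and the chaperones, 13 were higher and 20 lower, with a median of -0.098. Of these 33, 0 were higher without overlap at 4 h, 12 h or 11 d. The ATPase ring had 5 of 7 genes lower and a median of -0.16. The member with the smallest p was psmc4, the ATPase known as Rpt3 in yeast. Its signals were 481, 546 and 507 on transected arrays, against 646, 617 and 606 on sham arrays, so that the groups did not overlap. The log2 change was -0.29 ± 0.12, with an unadjusted p of 0.03 and an adjusted p of 1 (limma). The ATPase psmc2 was the other member that was lower on all transected arrays (-0.22 ± 0.24), against 6.65% of the brightest probe sets, and psmb13a was the single member higher on all of them (0.74 ± 0.40), against 5.99%. The inducible-type psmb13a is dim, at 48.7, 40.7 and 47.7 on transected arrays, against 24.1, 21.2 and 39.5 on sham arrays.

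At 12 h the other core changes ran from 0.36 ± 0.25 for psma5 and 0.28 ± 0.34 for psmb3 down to -0.25 ± 0.17 for psmb7, the trypsin-like site, -0.26 ± 0.21 for psmb4 and -0.49 ± 0.27 for psma2a. In the cap, psmd10 (0.27 ± 0.23), the ATPase psmc6 (0.23 ± 0.20) and the ubiquitin receptor psmd4b (0.12 ± 0.25) were the highest, and psmd8, a lid subunit, was with psmc4 and psmc2 among the lowest (-0.29 ± 0.22). Leaving out sham replicate 3, the array with the highest GAPDH ratio (5.4) and the lowest core mean, gave a median of -0.19 over the members. Leaving out sham replicate 1 gave 0.064.

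At 11 d, when axons regrow, 29 members were higher and 9 lower in transected fish, with a median of 0.067, against -0.013 over the brightest probe sets, 48.0% of which were higher. The core (0.066) and the cap (0.068) had nearly the same median. Leaving out sham replicate 2 gave -0.012, leaving out transected replicate 2 gave -0.0026, and leaving out both replicate 3 arrays gave 0.20, so that single arrays decide the size and the sign of this median.

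The 2 members with an unadjusted p under 0.05 at 11 d were psma8 and psmc4. The alpha gene psma8 had signals of 478, 570.0 and 395 on transected arrays, against 315, 399 and 300.3 on sham arrays. The lowest transected array was thus below the highest sham array, while each transected array was above the sham array of the same number. The log2 change was 0.50 ± 0.19, with an unadjusted p of 0.021 and an adjusted p of 0.89 (limma). The ATPase psmc4 had signals of 984, 1077 and 876 on transected arrays, against 876, 826 and 709 on sham arrays. Its groups met at 876, and the log2 change was 0.29 ± 0.12 (unadjusted p = 0.03, adjusted p = 0.95). The only member higher without overlap was the dim psmb12 (0.52 ± 0.35), with 23.0, 26.1 and 27.4 on transected arrays, against 16 (the floor), 18.9 and 18.4 on sham arrays. Of all 15502 probe sets, 423 were higher without overlap, as were 3.5% of the brightest ones, which do not include psmb12. Of the members, 0 were lower without overlap, against 3.95% of the brightest probe sets.

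The remaining core members at 11 d ran from 0.36 ± 0.31 for psma4 down to -0.095 ± 0.29 for psma1, -0.13 ± 0.25 for psma5 and -0.20 ± 0.27 for psma2a. The catalytic beta genes were close to no difference: psmb5 at 0.087 ± 0.14, psmb6, the caspase-like site, at 0.0025 ± 0.25 and psmb7 at -0.068 ± 0.17. Their 95% intervals were -0.22 to 0.40, -0.54 to 0.55 and -0.43 to 0.29, so changes of that size cannot be told from none with 3 arrays a group. In the cap, psmd1, a large scaffold subunit, was at 0.24 ± 0.17 (-0.045 ± 0.16 from its other probe set) and psmc6 at 0.23 ± 0.20. The ATPase ring had 6 of 7 genes higher, with a median of 0.16. The lowest cap genes were psmd10 (-0.12 ± 0.23), psmc5 (-0.11 ± 0.17) and psmd4a (-0.067 ± 0.21). The ubiquitin receptors gave 0.22 ± 0.29 for psmd2, which is also a scaffold, and -0.0067 ± 0.25 for psmd4b.

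**Figure D2:**
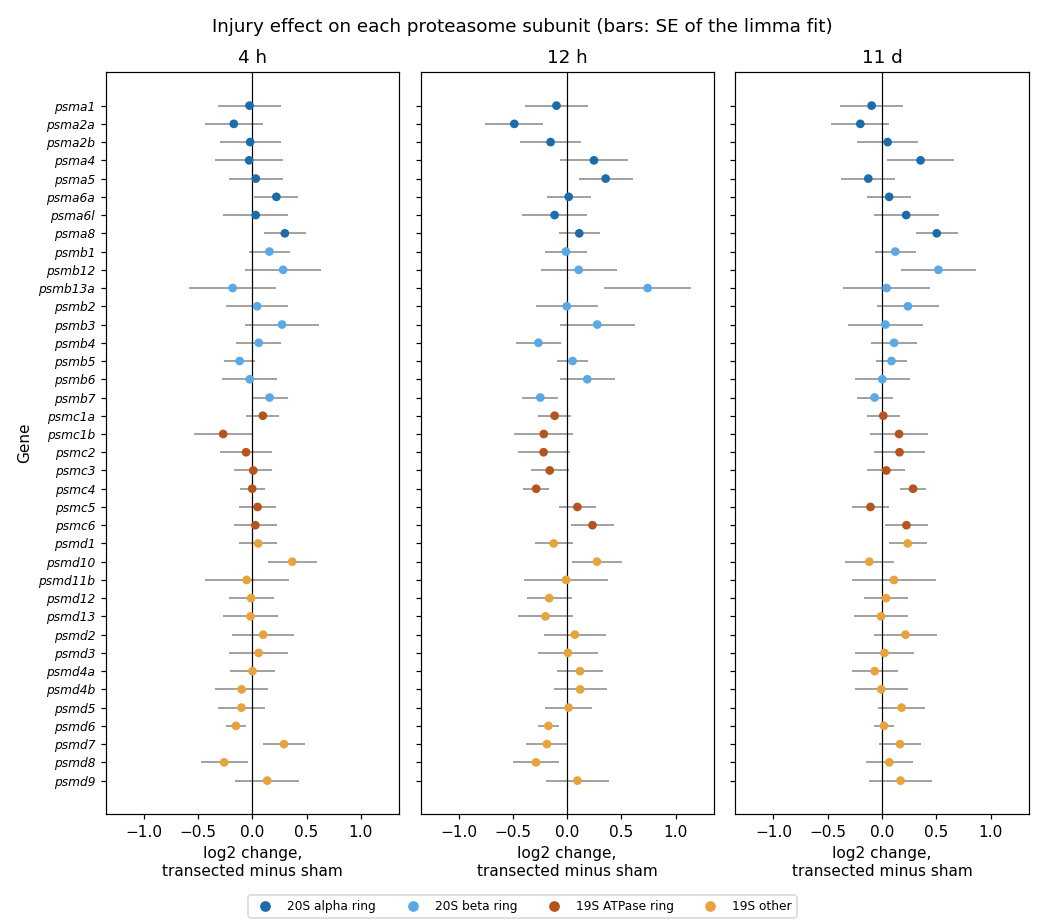
Log2 change between transected and sham fish at 4 h, 12 h and 11 d for each member, with bars for the SE of the limma fit and colours for the ring or class. Nearly all points lie between -0.5 and 0.5, no member was called, and the points at 11 d lie mostly to the right of 0 (29 of 38).

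The injury effects were also combined, as the effect at 11 d plus the mean of the effects at 4 h and 12 h. Such a sum does not measure whether the injury effect differed between the late and the early times, which was not tested. No member was called for the sum (7 of 15502 probe sets were, 0.0452%). The sum was positive for 26 members and negative for 12, and the median was 0.074 (core 0.18, cap 0.025), against -0.019 over the brightest probe sets. The 1 member whose sum had an unadjusted p under 0.05 was psma8, at 0.71 ± 0.23, with an adjusted p of 0.75 by limma. Of the brightest probe sets, 5.56% passed that level. The dim psmb12 was as high (0.72 ± 0.43), followed by psma4 (0.46 ± 0.38) and the ATPase psmc6 (0.36 ± 0.24). The lowest sums were those of psma2a (-0.53 ± 0.33), psmd8 (-0.21 ± 0.26) and psma1 (-0.16 ± 0.35). For psmc4 the sum was 0.14 ± 0.14 and for psmb7 -0.11 ± 0.20, both with an adjusted p of 1 by limma. The effects of psmc4 at 12 h and 11 d had opposite signs and partly cancel in its sum.

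Over all 6 groups a moderated F test (limma) called 1 member, psmc4 (adjusted p = 0.018), beside 203 of 15502 probe sets (1.31%), and psmb7 missed the threshold (0.073). In single comparisons both genes were called only between times. The level of psmc4 also differed by surgery, in opposite directions and without a call. Its geometric mean was lower in transected than in sham fish at 12 h (510.9, against 622.7) and higher at 11 d (975.5, against 800.1). In time order, the signals of psmc4 in transected fish were 689.9, 713 and 927 at 4 h, next 481, 546 and 507 at 12 h, and then 984, 1077 and 876 at 11 d. In sham fish they were 847, 748 and 721 at 4 h, then 646, 617 and 606 at 12 h, and finally 876, 826 and 709 at 11 d. The 12 h arrays were thus the lowest of all within each kind of surgery, and the transected 12 h arrays lay below every other array.

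**Figure D3:**
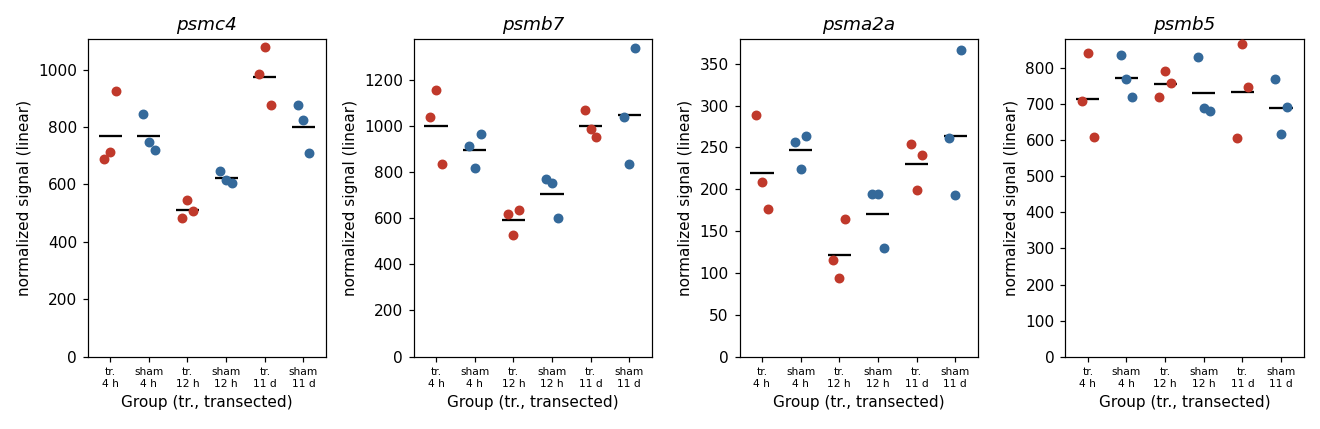
Normalized signal (linear, from 0) of psmc4, psmb7, psma2a and psmb5 on each array, with points for arrays and bars for the geometric mean of a group, in order of time and with transected left of sham. The 12 h levels of psmc4, psmb7 and psma2a are the lowest, and psmb5 has no such dip (757 in transected and 731 in sham fish at 12 h).

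In transected fish, psmc4 fell at 12 h relative to 4 h, by 0.59 ± 0.12 on the log2 scale (adjusted p = 0.029, limma). Its level at 11 d rose relative to 12 h by 0.93 ± 0.12, a fold of 1.91 (adjusted p = 0.0019). Both comparisons use the same 12 h arrays. In sham fish the differences had the same signs, -0.31 ± 0.12 for 12 h against 4 h and 0.36 ± 0.12 for 11 d against 12 h, with no overlap between arrays, but neither was called (adjusted p = 0.78 and 0.36).

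The catalytic gene psmb7 moved alike. Its signals in transected fish were 1038, 1157 and 835 at 4 h, then 619, 529.9 and 637 at 12 h, and finally 1070, 986 and 955 at 11 d, with no overlap of the 12 h arrays with the others. In sham fish they were 914, 817 and 964 at 4 h, then 771, 752 and 602 at 12 h, and finally 1039, 834 and 1339 at 11 d, where the 12 h arrays were again the lowest. In transected fish psmb7 fell at 12 h relative to 4 h by 0.76 ± 0.17 (adjusted p = 0.048, limma), and at 11 d it rose relative to 12 h by 0.76 ± 0.17 (adjusted p = 0.032). In sham fish the differences were -0.35 ± 0.17 (adjusted p = 0.88) and 0.58 ± 0.17 (adjusted p = 0.30).

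These calls depended on the settings to different degrees. The rise of psmc4 at 11 d relative to 12 h was past the threshold in 18 of 19 alternatives (0.86 to 1.11) and was lost when only the compared groups entered the fit (adjusted p = 0.074). Its fall at 12 h was past it in 5 of 18, psmb7's rise in 7 of 19 and psmb7's fall in 4 of 18. With the replicate number as a block, psmc4's rise was kept, psmb7's rise had an adjusted p of 0.052, and the falls had 0.054 for psmc4 and 0.07 for psmb7. With the GAPDH ratio of each array as a covariate, psmc4 was higher at 11 d than at 12 h (1.11, adjusted p = 0.018), whereas psmb7 was at 0.33 (adjusted p = 0.42). Since the ratios at 12 h do not overlap with those at the other times, that fit cannot separate RNA quality from time for either gene.

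Across the members, the 12 h arrays were low in both kinds of surgery. In transected fish, 10 members were higher and 28 lower at 12 h than at 4 h, with a median of -0.20 (core -0.22, cap -0.16), against -0.029 over the brightest probe sets. The 2 called members stand beside 191 of 15502 probe sets (1.23%). Leaving out transected replicate 1 at 4 h gave a median of -0.054 with 17 members higher, and array weights gave -0.12 with 16 higher. The median was 0.012 on the deposited scale, where the brightest probe sets had a median of 0.26 and the members lay 0.25 below it. In sham fish the counts were also 10 and 28, the median was -0.17 (core -0.25, cap -0.15), and no member was called (4 of 15502 probe sets, 0.0258%). On the deposited scale this median was 0.023, where the brightest probe sets had 0.18.

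In transected fish at 12 h relative to 4 h, the alpha ring had 7 of 8 genes lower and a median of -0.33, led by psma2a. The signals of psma2a were 115, 94.4 and 165 at 12 h, against 288, 209 and 176 at 4 h, with no overlap, and the change was -0.86 ± 0.27 (adjusted p = 0.16, limma). The alpha subunits psma1 (-0.74 ± 0.29) and psma2b (-0.50 ± 0.28) followed. The ATPase ring had 5 of 7 lower and a median of -0.36, with psmc1b at -0.59 ± 0.27, psmc2 at -0.42 ± 0.24 and psmc5 at -0.36 ± 0.17, while psmc3 was at 0.20 ± 0.18, psmc6 at 0.17 ± 0.20 and psmc1a at -0.19 ± 0.15. Without overlap, 7 members were lower (13.1% of the brightest probe sets) and 3 higher (12.7%).

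The 3 that were higher without overlap were psmb13a (0.93 ± 0.40), psmd2 (0.69 ± 0.29) and psmc6. The scaffold and ubiquitin receptor psmd2 had signals of 238, 282 and 193 at 12 h, against 160, 141 and 136 at 4 h, in transected fish. In sham fish it had 245, 210.2 and 217 at 12 h, against 106, 153 and 152 at 4 h. The 12 h arrays lay above the 4 h arrays after both surgeries, with changes of 0.69 ± 0.29 (adjusted p = 0.30) and 0.72 ± 0.29 (adjusted p = 0.80) by limma, so that neither was called. Thus psmd2 ran opposite to most members.

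In sham fish at 12 h relative to 4 h, the lowest core changes were -0.66 ± 0.29 for psma1, -0.54 ± 0.27 for psma2a and -0.48 ± 0.31 for psma4, and the lowest cap changes were -0.64 ± 0.27 for psmc1b, -0.41 ± 0.17 for psmc5 and that of psmc4. Without overlap, 7 members were lower (6.04% of the brightest probe sets) and 2 higher (6.78%), psmd2 and psma8 (0.41 ± 0.19). The ATPase psmc3 (0.37 ± 0.18) and the lid subunit psmd7 (0.32 ± 0.19) were the next highest of the cap. The smallest p belonged to psmd6, at -0.29 ± 0.095 (adjusted p = 0.70), which was also lower in transected fish (-0.31 ± 0.095, adjusted p = 0.14). At an unadjusted p under 0.05, 1 member was higher and 5 lower in sham fish (15.8% of members, 7.77% of the brightest probe sets), and 2 were higher and 8 lower in transected fish (26.3%, against 18.1%).

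**Figure D4:**
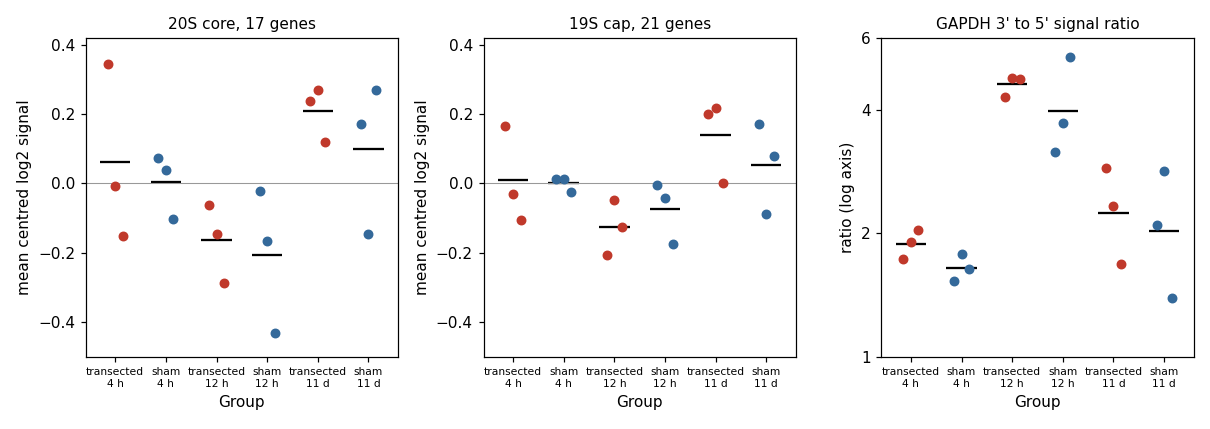
Mean centred log2 signal of the core members (left) and cap members (middle) and the GAPDH 3′ to 5′ ratio on a log axis (right), with points for arrays and bars for group means (geometric for the ratio), transected in red left of sham in blue. The arrays at 12 h hold the highest ratios (3.15 to 5.4) and core means of -0.43 to -0.021.

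The low levels at 12 h went together with the GAPDH ratio, which on the 12 h arrays did not overlap with the ratios at the other times. With that ratio as a covariate, the members' median at 12 h relative to 4 h was 0.024 in transected and 0.20 in sham fish, and 21 and 26 of 38 members were then higher. At 11 d relative to 12 h the median was 0.14 in transected and 0.049 in sham fish. The core median was then below 0 after both surgeries (-0.045 in transected and -0.14 in sham fish), while the cap median was 0.29 in transected and 0.15 in sham fish. The summed signal of the 2 measured endothelium markers was 221.4 to 351.3 at 12 h in transected fish, against 475.6 to 635.9 at 4 h (1 of the 2 genes lower), and overlapped in sham fish (253.5 to 420.6 at 12 h, against 378.4 to 478 at 4 h). In transected fish at 12 h relative to 4 h, 6 of 8 neuron markers were higher (median 0.36). Lower were 5 of 7 for radial glia (-0.27), 7 of 11 for microglia and leukocytes (-0.33), 3 of 4 for erythrocytes (-0.60) and 2 of 4 for oligodendrocytes (0.044). In sham fish, 8 of 8 neuron, 5 of 7 radial glia, 7 of 11 microglia and leukocyte and 3 of 4 oligodendrocyte markers were higher, as was 1 of 4 erythrocyte markers. The part of these cell types in the members' levels at 12 h was not tested. The share of RNA quality in the time differences cannot be told apart from time with these arrays, since time and ratio coincide. Within the 12 h arrays the core mean was lowest (-0.43) on the sham array with the highest ratio (5.4) and highest (-0.021) on the sham array with the lowest (3.15). The cap mean was highest (-0.0062) on that last array too, but lowest (-0.21) on a transected array with a ratio of 4.31. The core mean of this transected array was -0.063, above the -0.17 of a sham array with a lower ratio (3.72).

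Between 12 h and 11 d, the levels of 30 members in transected fish were higher and those of 8 lower at the later time, for a median of 0.36 (core 0.37, cap 0.32), against 0.0069 over the brightest probe sets. The 2 called rises stand beside 366 of 15502 called probe sets (2.36%). Without overlap, 16 members were higher at 11 d (12.3% of the brightest probe sets) and 0 were lower (12%), and 11 had an unadjusted p under 0.05, which is 28.9% of the 38, against 20.7%. In sham fish 29 were higher and 9 lower, the median was 0.24 (core 0.37, cap 0.18), and 0 were called (6 of 15502 probe sets, 0.0387%). In these sham fish 7 were higher without overlap (7.61% of the brightest probe sets) and 0 lower (8.69%), and 8 higher and 1 lower had an unadjusted p under 0.05, which is 23.7% of the members, against 11.1%. These medians kept their sign on the deposited scale (0.38 in transected and 0.24 in sham fish).

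All 8 alpha genes were higher at 11 d than at 12 h in transected fish, from 0.21 ± 0.19 for psma8 to 0.92 ± 0.27 for psma2a, with a median of 0.51. The signals of psma2a were 254, 199 and 241 at 11 d, against 115, 94.4 and 165 at 12 h, without overlap (adjusted p = 0.096, limma). The beta ring was more mixed, with 6 of 9 higher and a median of 0.21. Beside psmb7, the structural subunit psmb4 had 820.0, 1196 and 926 at 11 d, against 577, 663 and 503 at 12 h (0.75 ± 0.21, adjusted p = 0.085), again without overlap. The other catalytic genes did not follow: psmb5 was at -0.045 ± 0.14 and psmb6 at -0.080 ± 0.25.

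In the cap, after psmc4, the highest changes at 11 d relative to 12 h in transected fish were those of the lid subunits psmd8 (0.70 ± 0.22) and psmd12 (0.69 ± 0.21). The signals of psmd8 were 661, 767 and 619 at 11 d, against 340.5, 388 and 548 at 12 h, and those of psmd12 were 675, 696 and 534 at 11 d, against 427, 400.3 and 351 at 12 h. Neither gene's arrays overlapped, and neither was called (adjusted p = 0.11 for both, limma). The lid subunit psmd6 moved less but more evenly (0.36 ± 0.095, adjusted p = 0.067). The lowest cap genes were psmd4b (-0.26 ± 0.25), psmd3 (-0.22 ± 0.27) and psmd2 (-0.12 ± 0.29), with psmd4a at 0.054 ± 0.21. The remaining ATPases were at 0.66 ± 0.27 (psmc1b), 0.37 ± 0.15 (psmc1a), 0.31 ± 0.24 (psmc2), 0.21 ± 0.20 (psmc6), 0.20 ± 0.17 (psmc5) and -0.048 ± 0.18 (psmc3).

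In sham fish the highest changes at 11 d relative to 12 h were 0.77 ± 0.23 for the chaperone psmd10 and 0.73 ± 0.25 for psma5, followed by psma2a (0.63 ± 0.27) and psmb3 (0.60 ± 0.34). For psmd10 the signals were 226, 155 and 152 at 11 d, against 87.1, 107 and 115 at 12 h, without overlap (adjusted p = 0.32, limma). The lowest was psmd1 (-0.48 ± 0.17, adjusted p = 0.46).

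Between 4 h and 11 d the members differed less. In transected fish the later level was higher for 29 and lower for 9, the median was 0.15 (core 0.15, cap 0.13) and there were 0 calls (39 of 15502 probe sets, 0.252%). In sham fish 21 were higher and 17 lower, the median was 0.075 (core 0.17, cap 0.013) and there were 0 calls (0 of 15502 probe sets, 0%). At an unadjusted p under 0.05 there were 3 members in transected fish, psmc4 (0.34 ± 0.12), psmd8 (0.51 ± 0.22) and psma8 (0.43 ± 0.19), which is 7.89% against 9.52% of the brightest probe sets, and 1 in sham fish, psmd10 (0.62 ± 0.23), 2.63% against 6.38%. Without overlap, 1 member was higher in transected fish (6.1% of the brightest probe sets), psma4 (0.31 ± 0.31), and 1 lower (7.25%), psmd3 (-0.23 ± 0.27). In sham fish 5 were higher (4.19%), psmd10, psma6a, psmd7, psma5 and psmb1, and 1 was lower (3.74%), psmb6 (-0.17 ± 0.25). The highest changes in transected fish were those of psmb13a (0.61 ± 0.40) and psmd2 (0.58 ± 0.29) and the lowest that of psma1 (-0.36 ± 0.29). On the deposited scale the medians were 0.39 in transected and 0.26 in sham fish, where the brightest probe sets had 0.29 and 0.23.

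**Figure D5:**
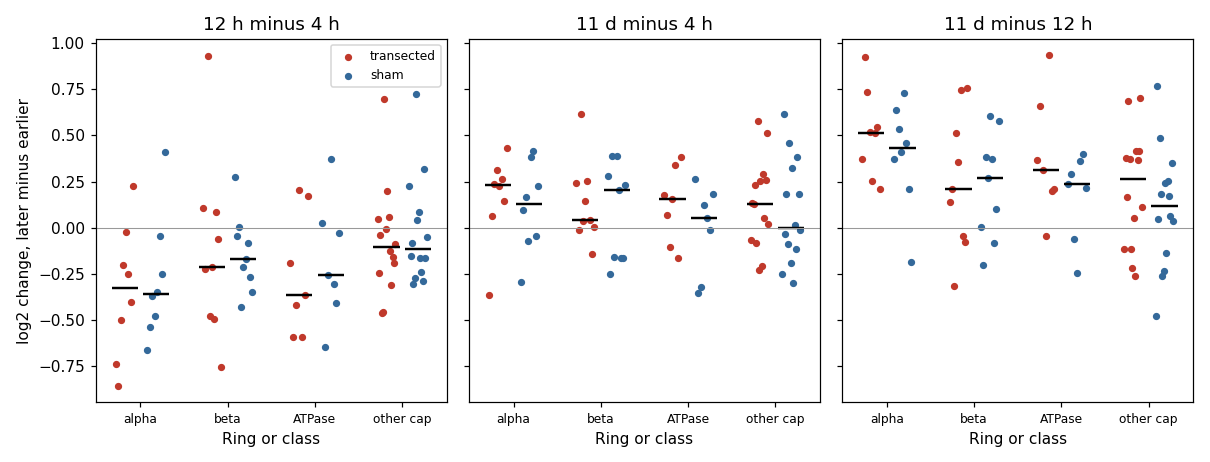
Log2 change between times (later minus earlier) for each member by ring or class, transected in red left of sham in blue, with bars for the median. Most points lie below 0 for 12 h against 4 h (28 of 38 after either surgery) and above 0 for 11 d against 12 h (30 in transected and 29 in sham fish).

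The core and cap medians had the same sign in each comparison except the injury effect at 12 h. That core median turned negative, like the cap's, without the dim psmb12 and psmb13a, and also with log2(value + 16) (-0.0015). On the deposited scale the signs also differed for 12 h against 4 h (-0.019 and 0.018 in transected, -0.046 and 0.048 in sham fish). With the GAPDH ratio as a covariate the signs differed for 11 d against 12 h after both surgeries, as given above, and for 12 h against 4 h in transected fish (core 0.16, cap -0.086). As the mean over centred members, the core level was 0.062 ± 0.26 in transected and 0.0026 ± 0.094 in sham fish at 4 h, -0.17 ± 0.11 in transected and -0.21 ± 0.21 in sham fish at 12 h, and 0.21 ± 0.078 in transected and 0.098 ± 0.22 in sham fish at 11 d (log2, SD, n = 3 arrays each). The cap level was 0.0091 ± 0.14 in transected and 0.00013 ± 0.022 in sham fish at 4 h, -0.13 ± 0.079 in transected and -0.074 ± 0.088 in sham fish at 12 h, and 0.14 ± 0.12 in transected and 0.053 ± 0.13 in sham fish at 11 d. The core minus the cap was 0.053 ± 0.12 in transected and 0.0025 ± 0.073 in sham fish at 4 h, -0.038 ± 0.16 in transected and -0.13 ± 0.12 in sham fish at 12 h, and 0.069 ± 0.043 in transected and 0.046 ± 0.13 in sham fish at 11 d. These differences ran from -0.13 to 0.069, with an SD of 0.114 between arrays of a group, and no test was made on them, since the members were chosen with earlier results known. The core mean varied over a wider range than the cap mean (-0.43 to 0.34, against -0.21 to 0.22 over the 18 arrays).

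The members varied unevenly among themselves. The catalytic psmb5 had the smallest range of group means among the catalytic genes, 0.16 on the log2 scale, with signals of 608 to 869 over all arrays. Its partner sites differed: psmb6 had 371 to 872 and psmb7 had 529.9 to 1339. For the 34 members with 1 probe set no second measure exists. Of the 4 with several, the 2 probe sets of psmd12 moved together in transected fish, at -0.46 and -0.43 for 12 h against 4 h and at 0.69 and 0.71 for 11 d against 12 h.

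The probe sets of psmc1b disagreed. For 12 h against 4 h in transected fish the brighter one gave -0.59 ± 0.27 and another 0.62 ± 0.20, and for 11 d against 12 h they gave 0.66 ± 0.27 and -0.29 ± 0.20. In sham fish they gave -0.645 ± 0.27 and 0.75 ± 0.20 for 12 h against 4 h. The injury effect at 4 h was -0.27 ± 0.27 and 0.11 ± 0.20. Thus psmc1b has no settled direction. Its remaining probe set was at 16 on all 18 arrays. The second probe set of psmd1, singled out after its values were seen, was lower at 11 d than at 12 h in transected fish (-0.72 ± 0.16, adjusted p = 0.031, limma), where the brighter one gave -0.11 ± 0.17. The probe sets of psmd1 thus differed there in size but not in sign, and in sham fish they gave -0.40 and -0.48 for that comparison. For 11 d against 4 h in sham fish their signs differed (0.046 and -0.25). The fainter set of psmd9 gave -0.67 ± 0.44 for 12 h against 4 h in transected fish, against -0.091 ± 0.29 from the brighter one.

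The other genes of the pathway were counted in lists: inducible subunits (5 of 10 listed genes measured, psmb12 and psmb13a among them), activators and inhibitors of the core (4 of 6), assembly and regulation (6 of 11) and ubiquitin supply and shuttling (17 of 25). In transected against sham fish, 0 of these genes were called at 4 h, 12 h or 11 d. With the replicate number as a block among the brightest probe sets, psme2 was called at 11 d (1.24, adjusted p = 0.027, limma), beside 43 of 10334 probe sets (0.416%). With array weights, psme2, psmb10, psme1 and uchl1 were called at 11 d (adjusted p of 0.00092 to 0.025), beside 1243 of 15502 probe sets (8.02%). At 11 d the median log2 change was 0.45 for the inducible subunits (4 of 5 higher) and 0.63 for the activators and inhibitors (3 of 4 higher), against 0.067 for the members, 0.021 for assembly and regulation (3 of 6 higher) and 0.025 for ubiquitin supply and shuttling (10 of 17 higher).

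The activator genes psme1 and psme2 encode the interferon-inducible 11S cap that binds the core in place of the 19S cap. For psme2 the signals at 11 d were 205, 252 and 234 in transected fish, against 75.2, 109 and 113 in sham fish, without overlap. At 11 d relative to 12 h in transected fish 3 of these inducible genes rose: psme2 by 1.57 ± 0.27 (adjusted p = 0.013, limma), psme1 by 1.56 ± 0.33 (adjusted p = 0.030) and psmb10 by 1.11 ± 0.23 (adjusted p = 0.028). The deubiquitinase uchl1, abundant in neurons, rose by 0.85 ± 0.15 (adjusted p = 0.012), and the ubiquitin-ribosomal fusion gene rps27a fell by 0.39 ± 0.072 (adjusted p = 0.016). The other lists' genes were not called there, which left 0 of 6 called in assembly and regulation, where the core chaperone pomp was at 0.48 ± 0.21. In sham fish the 5 called genes differed in the same direction at 11 d relative to 12 h, without a call. The largest of these sham changes was 0.71 for psme1, with 394, 245 and 475 at 11 d, against 238, 247 and 178 at 12 h. The 5 calls in transected fish depended on the settings. They were past the threshold in 15 of 19 alternatives for psme2, 13 for uchl1, and 11 each for psme1, psmb10 and rps27a. All 5 were lost on the deposited scale (adjusted p of 0.11 to 0.23) and with only the groups compared (0.086 to 0.18), and psme1 and psmb10 were also lost when any of 5 of the 6 compared arrays was left out (0.051 to 0.12). With the GAPDH ratio as a covariate the adjusted p was 0.055 to 0.37. The changes were then 0.87 for uchl1, -0.48 for rps27a and 1.28 for psme2, and they were smaller for psme1 (0.91) and psmb10 (0.51).

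Beside these, the summed signal of the microglia and leukocyte markers was 4671 to 5090 in transected fish at 11 d, against 3264 to 4105 in sham fish at 11 d and 3112 to 3645 in transected fish at 12 h. At 4 h it was 2969 to 5215 in transected fish. At 11 d, 8 of these 11 genes were higher and 3 lower in transected than in sham fish. For 11 d against 12 h in transected fish 9 were higher and 2 lower (-3.43 to 1.27), with 1 called each way, beside 366 of 15502 probe sets (2.36%). The neuron markers, with uchl1 among them, summed to 17550 to 19680 in transected fish at 11 d, against 13790 to 15460 in sham fish at 11 d and 15520 to 17340 in transected fish at 12 h. At 11 d, 7 of the 8 neuron markers were higher and 1 lower in transected than in sham fish (median 0.14, 0 called). For 11 d against 12 h in transected fish, however, 2 of the 8 neuron markers were higher and 6 lower (median -0.175). In these transected fish uchl1 alone had a mean signal of 4592 at 11 d, against 2556 at 12 h. The erythrocyte markers were higher at 11 d than at 12 h for 3 of 4 genes in transected fish (median 0.74) and for 4 of 4 in sham fish (median 1.01). Their summed signal was 6483 to 10630 at 11 d, against 5059 to 7308 at 12 h, in transected fish, and 7553 to 11530 at 11 d, against 6318 to 8936 at 12 h, in sham fish. In transected against sham fish at 11 d, 0 of 4 erythrocyte markers were higher and 4 lower (-2.29 to -0.13). Of these, 1 was called lower (adjusted p = 0.033, limma). Of the 7 radial glia markers, 4 were higher and 3 lower (-3.64 to 0.66), and 1 was called lower (adjusted p = 0.012, limma). In all, 7 of 15502 probe sets were called there (0.0452%). The part of these cell types in the members' levels at 11 d was not tested.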

How the data were processed

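The authors deposited 1 intensity per probe set and array, which the values show to be linear. Which program made them: not given in the sources used here. Per the labels, captured tissue was amplified after a small-scale column purification and labelled with biotin as cDNA. The 18 arrays were quantile normalized over 15617 probe sets, floored at 16 and log2 transformed here, and 115 control probe sets were removed. The brightest probe set by mean over the arrays stood for a gene. In limma 3.58.1 (R 4.3.3), 6 group means were fitted to all arrays (lmFit, eBayes, Benjamini-Hochberg over 15502 probe sets), and the fit was tested on simulated data. Residual degrees of freedom were 12 and prior degrees 0.51 (5.8 over the brightest 10334 probe sets). The number of arrays limits the precision.

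Named genes are those called, the highest and lowest per class, catalytic and ubiquitin-receptor genes and ATPases. Members and lists were chosen with earlier results of these data known. The planned test assumed log2 or linear values, and the linear ones were used. Same-numbered transected and sham arrays deviated together at 4 h (correlations of 0.64, 0.40 and 0.27) and 11 d (0.24, 0.50 and 0.66), not at 12 h (0.11, -0.014 and 0.14).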

Additional observations from a re-analysis of the deposited data

How the results depend on the processing

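With 3 arrays a group, changes within the intervals given cannot be told from none, and the mean over the members had an SD of 0.13 between arrays of a group. The count of called members was 0 for each injury effect and for their sum (11 d plus the mean of 4 h and 12 h) under all alternatives but array weights. With array weights it was 1 (psma8) at 11 d and 1 (psma8) for the sum. Array weights called 8.02% and 2.99% of all probe sets in these comparisons, against 2.63% of the members in each. They also gave 4 members (10.5%, against 5.18% of probe sets), 6 (15.8%, against 12.9%) and 10 (26.3%, against 17.6%) in transected fish for 12 h against 4 h, 11 d against 4 h and 11 d against 12 h, and 2 (5.26%, against 8.79%) for 11 d against 4 h and 10 (26.3%, against 13.2%) for 11 d against 12 h in sham fish. For 12 h against 4 h in transected fish (2 called) the count was 0 on the deposited scale, with log2(value + 16) and among the brightest probe sets. It was also 0 with the GAPDH ratio as a covariate (chosen after seeing the data) and with both the replicate block and the brightest probe sets. It was 1 with a floor of 32, with a trended robust variance and with only the groups compared. In the last of these the called member was psmc1b (-0.59, adjusted p = 0.046, limma), whose probe sets disagreed, and neither psmc4 nor psmb7 was called. For 11 d against 12 h in transected fish (2 called) it was 1 on the deposited scale, with median scaling, among the brightest probe sets, with the GAPDH ratio as a covariate and with the block among the brightest, and 0 with only the groups compared. With the replicate block alone these counts were 0 and 1, and the block changed no other call of a member. Correlations of same-numbered arrays were 0.24 to 0.66 at 4 h and 11 d and -0.47 to 0.34 across times. Differently numbered arrays were not compared, so whether the numbers mark pairs is not settled, and the block over times is only a check. Leaving out each array gave 0 to 1 and 1 to 4.

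On the deposited scale the medians were 0.012 and 0.39 in transected fish (12 h and 11 d, each against 4 h) and 0.023 and 0.26 in sham fish, where both replicate 3 arrays at 4 h had lower signals (trimmed means of 92.2 and 99.8, against 149 to 150 elsewhere). Median scaling gave -0.14 for the injury effect at 12 h and -0.36 for 12 h against 4 h in transected fish. The GAPDH ratio as a covariate moved the medians of 12 h against 4 h and 11 d against 12 h furthest of all settings, after both surgeries. They were then 0.024 and 0.14 in transected and 0.20 and 0.049 in sham fish, in that order. Leaving out both replicate 3 arrays at 11 d gave 0.20 for the injury effect at 11 d. Leaving out each array in turn gave medians of -0.058 to 0.13, -0.19 to 0.064 and -0.012 to 0.14 for the injury effects at 4 h, 12 h and 11 d. For the sum of the 11 d effect and the mean early effect it gave 0.017 to 0.20. For 12 h against 4 h, 11 d against 4 h and 11 d against 12 h it gave -0.26 to -0.054, 0.046 to 0.27 and 0.26 to 0.37 in transected fish. In sham fish these ranges were -0.24 to -0.11, 0.036 to 0.18 and 0.15 to 0.33. The core median minus the cap median moved by less than the SD between arrays (0.114) on the deposited scale and, with 1 exception, without psmb12 and psmb13a. For 11 d against 12 h in transected fish the medians were 0.37 and 0.32, and without these genes their difference became 0.20. It moved further with the GAPDH ratio and without some single arrays: without transected replicate 1 at 12 h the core and cap medians for 12 h against 4 h were -0.39 and -0.048, and without sham replicate 1 at 12 h they were -0.37 and -0.097 in sham fish.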
